A study of Homo sapiens with 4 samples.

Results

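The genes described here are 38 human genes that act on broken DNA: 13 that sense breaks or carry the checkpoint signal, 6 of end joining, 16 of homologous recombination and 3 of the Fanconi pathway. They were chosen by name, and each was measured as the sum of its annotated transcripts in the deposited transcript table and given as CPM (counts after each library is scaled to the same total). All 38 reached 1 CPM in at least 1 library, as did 15989 genes in all. The cells were AC16, an established human line that the labels call a cardiomyocyte. The 4 groups were untreated cells (0 min) and cells kept for 10, 30 or 360 min in 10 nM doxorubicin, with 1 poly(A) RNA library per group. Treated cells lost their serum-containing medium, had a PBS wash and got the drug in serum-free DMEM. Whether untreated cells went through that change is not stated, so drug, serum withdrawal and time cannot be told apart.

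Doxorubicin is an anthracycline that traps topoisomerase II on DNA, which leaves broken ends. A break is bound by the complex of MRE11, RAD50 and NBN and by the kinases ATM and ATR, which mark histone H2AX and switch on the checkpoint kinases. End joining ligates the ends directly at any stage of the cell cycle, whereas homologous recombination copies the sister chromatid and is used after replication. The Fanconi pathway acts on crosslinked DNA and stalled forks, and its central pair is FANCD2 and FANCI. Transcripts of many recombination and Fanconi genes are known to be most abundant in cycling cells.

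With 1 library per time there is no replicate check, so no p-value was computed and every difference compares libraries, not conditions. A gene was called lower or higher when its CPM ratio reached 2-fold and the 95% counting interval of the ratio left out 1. The libraries held 55156612 to 56875881 deposited counts, of which 10.7 to 11.7% lay in transcript models that carry no annotation. Such assembled models also lie inside members' own loci. Counts of members called against 0 min are therefore given for the annotated sum and for the whole locus with its assembled models. The whole locus covers the 33 members whose locus could be tied to 1 gene. Other values and counts are by annotated sum unless the whole locus or coding transcripts are named. Of 16 cardiomyocyte markers listed for this report, 7 reached 1 CPM in a library. The other 9 did not. Of 10 fibroblast markers 6 reached 1 CPM and 4 did not. The summed level of the fibroblast list was 11073 to 17518 CPM, against 114 to 211 CPM for the cardiomyocyte list. A sum can rest on few genes of a list, and the cell type was not tested.

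Several repair and checkpoint genes were lower at 10 min and were back near the untreated level at 30 min. By annotated sums 7 of 38 members were lower than at 0 min, against 7.24% of all genes. They were MRE11, H2AX, BRCA2, BARD1, RAD54B, BLM and FANCD2. RAD51B alone was higher, against 11.5% of all genes. By whole locus 8 of 33 were lower, where 5.21% of all tied genes were, and 0 were higher, where 9.76% were. These 8 were H2AX, BRCA2, BARD1, XRCC2, BLM, EXO1, FANCD2 and FANCI. The median log2 ratio of the 38 was -0.63, beside 0.02 for all genes. The ratio was below 1 for 32 of 38 members, beside 48.8% of all genes. In bulk RNA, fewer cells of a kind and less RNA per cell cannot be told apart. At 30 and 360 min the median log2 ratios were 0.09 and 0.07. By annotated sum the 10 min library was the lowest of the 4 for 29 of 38 members (76.3%), beside 34.3% of all genes. By whole locus it was the lowest for 26 of 33 (78.8%), beside 35.4% of all tied genes.

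**Figure D1:**
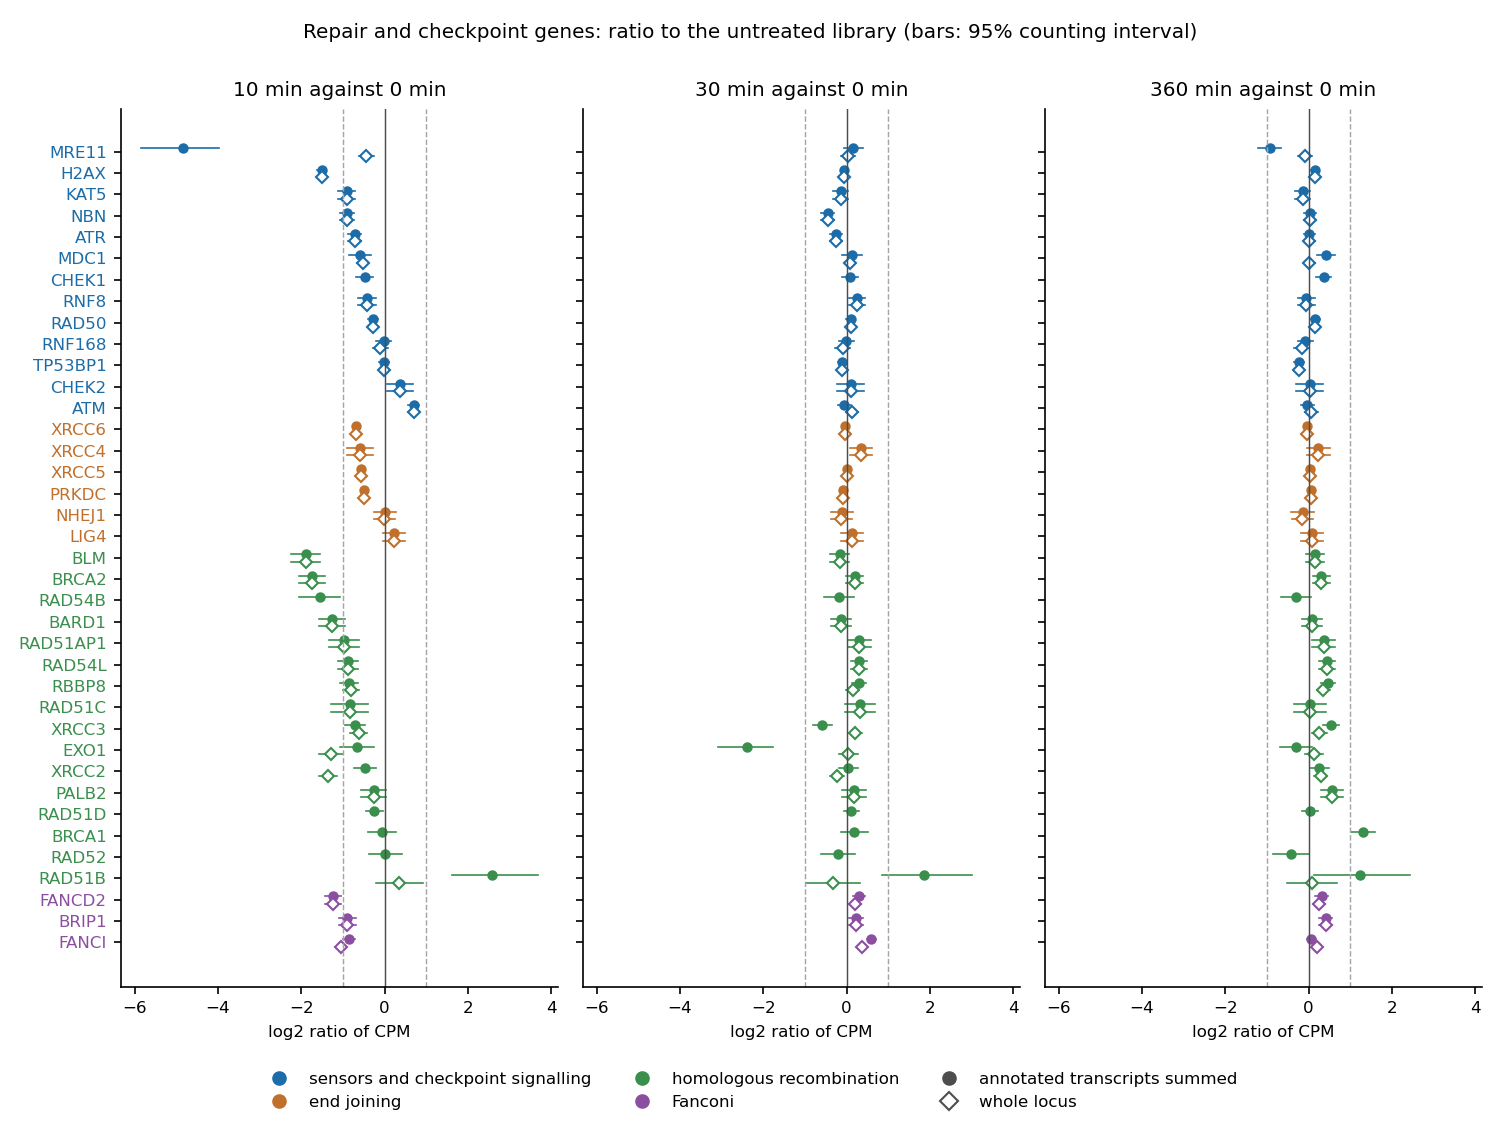
Log2 ratio of CPM to the untreated library for each of the 38 members at 10, 30 and 360 min, by annotated sum (filled circles) and whole locus (open diamonds, 33 members), with 95% counting intervals as bars and dashed lines at 2-fold. Points lie left of 0 for 32 of 38 members at 10 min, and around 0 at 30 and 360 min apart from MRE11, EXO1, BRCA1 and RAD51B, whose annotated sums lie furthest out.

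Promoter stretches of 5 members that were lower at 10 min are shown here, so that the letters upstream of genes lower in the same library can be compared. The sequences run 5′ to 3′ on the gene's strand and come from RefSeq on GRCh38.p14. They lie within the 250 bases before the RefSeq start, and end before the first annotated exon. Capitals mark an E2F-type motif (spelled TTCCCGC or else TTGGCGC, or TTCGCGC, or lastly TTGCCGC), a CHR-type motif (TTTGAA) or a CCAAT box (CCAAT), each searched on both strands. A CCAAT box on the other strand (ATTGG) can overlap the E2F-type TTGGCGC. H2AX lies at chr11:119095468-119095715, minus strand; BLM at chr15:90717142-90717326, plus strand; BRCA2 at chr13:32315345-32315473, plus strand; BARD1 at chr2:214809712-214809933, minus strand; and FANCD2 at chr3:10026366-10026413, plus strand.
H2AX: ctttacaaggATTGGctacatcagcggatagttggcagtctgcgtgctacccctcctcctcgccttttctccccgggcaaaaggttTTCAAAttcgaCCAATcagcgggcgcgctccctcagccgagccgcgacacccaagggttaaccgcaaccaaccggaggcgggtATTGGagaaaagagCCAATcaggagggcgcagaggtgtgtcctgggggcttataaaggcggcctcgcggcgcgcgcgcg
BLM: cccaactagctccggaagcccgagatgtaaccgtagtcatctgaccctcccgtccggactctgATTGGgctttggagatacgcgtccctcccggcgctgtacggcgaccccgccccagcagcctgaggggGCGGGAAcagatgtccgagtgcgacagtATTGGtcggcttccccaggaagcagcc
BRCA2: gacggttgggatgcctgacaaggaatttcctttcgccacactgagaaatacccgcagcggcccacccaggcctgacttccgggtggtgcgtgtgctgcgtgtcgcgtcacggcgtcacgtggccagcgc
BARD1: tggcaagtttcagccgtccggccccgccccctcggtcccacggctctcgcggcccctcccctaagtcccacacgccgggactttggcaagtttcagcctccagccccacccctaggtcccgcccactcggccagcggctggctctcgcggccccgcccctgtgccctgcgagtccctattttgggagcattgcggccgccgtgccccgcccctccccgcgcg
FANCD2: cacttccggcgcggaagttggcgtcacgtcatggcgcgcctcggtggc
The H2AX stretch held 4 CCAAT boxes and 1 CHR-type motif, and the BLM stretch 1 E2F-type motif and 2 CCAAT boxes. The stretches of BRCA2, BARD1 and FANCD2 held none of the 3. Over the whole 250 bases, 33 of the 38 members had a promoter in the table. An E2F-type motif was present in 6 of the 33 (18.2%), beside 10.9% of all 35114 promoters. Members were counted with 1 promoter each, while the set of all promoters was not limited to 1 per gene or to measured genes. It was present in 1 of the 8 promoters of members lower at 10 min by either measure and in 5 of the 25 others. A CHR-type motif was present in 12.1% of the members' promoters and 13.3% of all promoters. A CCAAT box was present in 45.5% and 32.0%. None of the 3 motifs was thus in all 8 promoters of the lower members, and a match to letters is not a binding site.

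H2AX is the histone variant that ATM marks around a break, and it was the sensor gene with the clearest loss at 10 min. The gene (ENSG00000188486, chr11:119093854-119095467, minus strand, GRCh38) had 196 CPM at 0 min, 68.8 CPM at 10 min, 188 CPM at 30 min and 216 CPM at 360 min. The 10 min library stood apart below the other 3, which lay close together. H2AX was 2.85-fold lower at 10 min (95% counting interval 2.65 to 3.07), and no assembled model lay in its locus. Most of its counts lay in 1 coding transcript, H2AFX-202, at 185, 64.4, 176 and 197 CPM.

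MRE11 is the nuclease of the break-binding complex. Its annotated sum (chr11:94415578-94493908, minus strand) was 22.5, 0.791, 25.1 and 11.8 CPM at 0, 10, 30 and 360 min. That made it 28.4-fold lower at 10 min (15.7 to 57.5). The whole locus told otherwise, with 42.8, 31.5, 43.7 and 40.0 CPM and a 10 min ratio of 0.738 (0.651 to 0.835), short of 2-fold. Assembled models held 30.8 CPM at 10 min, 97.5% of the locus. The long coding transcript MRE11-201 had 19.0 CPM at 0 min and 0.00 CPM at 10 min.

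The partners of MRE11 were nearer to the untreated level. RAD50, the ATPase that bridges ends, had 97.1, 79.7, 104 and 108 CPM, a 10 min ratio of 0.820 (0.757 to 0.888). In the annotation, 79.7% of its exon bases are shared with AC116366.3 on the same strand. NBN, which recruits ATM, had 59.0, 31.5, 43.1 and 60.4 CPM, a ratio of 0.533 (0.474 to 0.599). The 3 members of the complex thus gave whole-locus ratios between 0.533 and 0.820 at 10 min, all below 1 and none past the rule.

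ATM and ATR, the apical kinases, lay on opposite sides of 1 at 10 min. ATM, which answers breaks, had 52.6, 85.3, 50.7 and 51.5 CPM. Its 10 min ratio of 1.62 (1.48 to 1.78) was the highest of the 13 sensor genes and was short of 2-fold. ATR, which answers exposed single strands, had 65.4, 39.8, 55.03 and 66.0 CPM, a ratio of 0.608 (0.547 to 0.677). ATM counts were divided between models differently from library to library: ATM-203 had 19.8, 64.0, 6.91 and 25.3 CPM and ATM-201 had 19.8, 14.1, 34.4 and 14.9 CPM.

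Their targets, the checkpoint kinases, did not pass the rule at any time. CHEK1, the target of ATR, had 31.7, 22.7, 33.6 and 40.7 CPM. CHEK2, the target of ATM, had 11.2, 14.5, 12.0 and 11.4 CPM. CHEK2 has 4 pseudogenes named after it, so reads could be split among copies.

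The chromatin arm of the response was mixed at 10 min. MDC1, which reads marked H2AX, had 20.5, 13.6, 22.4 and 27.4 CPM by annotated sum and 77.9, 54.2, 82.5 and 78.9 CPM by whole locus. The ubiquitin ligases of this arm had 10 min ratios of 0.747 for RNF8 (28.3, 21.2, 33.7 and 27.3 CPM) and 0.984 for RNF168 (35.9, 35.3, 35.6 and 33.9 CPM). TP53BP1, which holds ends for joining, had 88.4, 87.1, 82.5 and 75.3 CPM, a ratio of 0.985 (0.910 to 1.07). KAT5, the acetyltransferase that activates ATM, had 38.4, 20.4, 34.9 and 35.0 CPM, a ratio of 0.531 (0.459 to 0.614). So RNF168 and TP53BP1 sat at the untreated level while KAT5 was near the 2-fold line. KAT5 shares 38.6% of its exon bases with RNASEH2C and TP53BP1 28.7% with TUBGCP4 on the other strand, and whether the counting used strand is not given in the sources used here.

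End joining genes had no member past the rule at any time by annotated sum or whole locus, and NHEJ1 passed it by coding transcripts. XRCC6 and XRCC5 encode the Ku pair that caps ends. XRCC6 (chr22:41621119-41664048, plus strand) had 764, 473, 749 and 738 CPM, a 10 min ratio of 0.619 (0.600 to 0.638). XRCC5 had 334, 226, 336 and 341 CPM, a ratio of 0.678 (0.648 to 0.709). PRKDC, the kinase that Ku holds on the end, had 726, 516, 679 and 751 CPM, a ratio of 0.711 (0.689 to 0.732). The 3 subunits of this kinase complex were thus all below their level in the other libraries at 10 min, with narrow intervals, and by less than 2-fold. XRCC6 has 5 pseudogenes named after it.

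At the ligation step the genes differed among themselves. LIG4, the ligase, had 16.1, 18.8, 17.6 and 17.0 CPM, a 10 min ratio of 1.17 (0.974 to 1.40). Its partner XRCC4 had 14.7, 9.77, 18.7 and 17.2 CPM, a ratio of 0.666 (0.533 to 0.831). NHEJ1, which aligns the filament, had 17.8, 17.9, 16.5 and 16.1 CPM, a ratio of 1.01 (0.842 to 1.20). By annotated sum the LIG4 and NHEJ1 intervals included 1, and the XRCC4 interval did not. The coding transcripts of NHEJ1 had 17.1, 8.27, 16.0 and 4.01 CPM, 2.07-fold lower at 10 min (1.65 to 2.60) and 4.27-fold lower at 360 min (3.18 to 5.83). At those times the nonsense-mediated decay model NHEJ1-203 held 9.60 and 11.8 CPM. NHEJ1 shares 65.4% of its exon bases with AC068946.1 on the same strand.

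Homologous recombination, the role with the most genes, had the most members past the rule at 10 min. By annotated sum 4 of its 16 genes were lower (BRCA2, BARD1, RAD54B and BLM), beside 7.24% of all genes. By whole locus 5 of 12 were (BRCA2, BARD1, XRCC2, BLM and EXO1), beside 5.21% of all tied genes. These shares, 25% and 41.7%, were below those of the 3 Fanconi genes, of which 1 was lower by annotated sum (33.3%) and 2 by whole locus (66.7%). Of the sensors 2 of 13 were lower by annotated sum and 1 of 12 by whole locus. The median log2 ratio was -0.77 by annotated sum, beside -0.48 for the sensors, -0.53 for end joining and -0.89 for the 3 Fanconi genes. By whole locus the 4 medians were -0.92, -0.43, -0.53 and -1.05. The roles differ in size and share libraries, and the difference between them was not tested.

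BRCA2 loads the recombinase onto resected DNA. It (ENSG00000139618, chr13:32315474-32400266, plus strand) had 26.9 CPM at 0 min, 8.02 CPM at 10 min, 30.8 CPM at 30 min and 33.3 CPM at 360 min. It was 3.35-fold lower at 10 min (2.71 to 4.18), and nearly all its counts lay in 1 coding transcript, BRCA2-201, in every library. BLM is the helicase that unwinds recombination intermediates. It (ENSG00000197299, chr15:90717327-90816165, plus strand) had 23.7, 6.40, 21.1 and 26.4 CPM and was 3.70-fold lower at 10 min (2.92 to 4.73). For both genes the 10 min library was the lowest, and neither locus held an assembled model.

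BARD1, the partner that BRCA1 needs to be stable, had 20.6, 8.58, 18.7 and 21.8 CPM and was 2.40-fold lower at 10 min (1.93 to 2.99). RAD54B, a motor protein that moves on DNA during strand exchange, had 10.1, 3.44, 8.97 and 8.23 CPM and was 2.95-fold lower (2.12 to 4.19). RAD54B shares 59.1% of its exon bases with FSBP, and its locus was not tied to 1 gene. Its relative RAD54L had 28.3, 15.4, 35.0 and 38.4 CPM, a ratio of 0.544 (0.459 to 0.643).

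**Figure D2:**
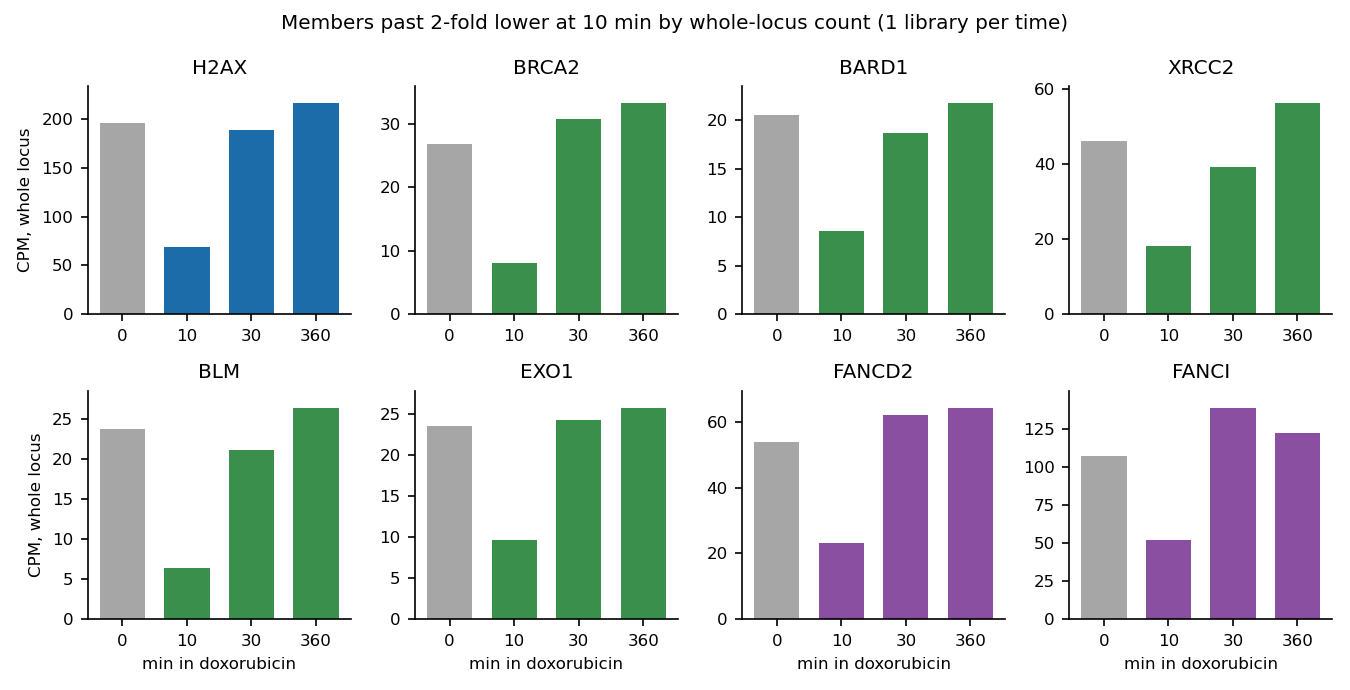
Whole-locus CPM (vertical axes from 0, own scale per gene) at 0, 10, 30 and 360 min of doxorubicin for the 8 members past 2-fold lower at 10 min, with 1 library per bar and no error bar. In each gene the 10 min bar is the shortest, from 68.8 CPM for H2AX to 6.40 CPM for BLM, and the 30 and 360 min bars stand near the grey untreated bar.

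BRCA1, the scaffold of the recombination complex, gave different values at 10 min by annotated sum and by coding transcripts. Its annotated sum (ENSG00000012048, chr17:43044295-43170245, minus strand) was 10.5, 10.1, 11.9 and 25.7 CPM. It was 2.46-fold higher at 360 min (2.02 to 3.00), with a 10 min ratio of 0.959 (0.756 to 1.22). Its coding transcripts alone had 10.3, 4.70, 11.8 and 22.99 CPM, 2.19-fold lower at 10 min (1.62 to 2.98), while BRCA1-205, a nonsense-mediated decay model, held 4.96 CPM there. Its locus holds a second annotated gene and was not tied to BRCA1. That locus had 45.7, 24.6, 40.2 and 53.0 CPM, of which assembled models took 55.2% at 0 min, 17.9% at 10 min, 52.8% at 30 min and 35.4% at 360 min. The leading annotated transcript was BRCA1-203 at 0 and 360 min, BRCA1-205 at 10 min and BRCA1-201 at 30 min. PALB2, which joins BRCA1 to BRCA2, had 14.3, 12.0, 16.2 and 21.2 CPM and was past the rule in no comparison with 0 min.

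The genes that resect ends for recombination were lower or near the line at 10 min. RBBP8, which starts resection with MRE11, had 34.7, 19.3, 42.7 and 47.7 CPM, a ratio of 0.555 (0.477 to 0.645). EXO1, the exonuclease that extends it, had 9.23, 5.83, 1.75 and 7.51 CPM by annotated sum and 23.5, 9.64, 24.2 and 25.7 CPM by whole locus. The whole locus of EXO1 was 2.44-fold lower at 10 min (1.99 to 3.00). Its annotated sum was instead 5.26-fold lower at 30 min (3.39 to 8.48), when assembled models held 92.7% of the locus.

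Among the paralogues of the recombinase, XRCC2 was lower at 10 min by whole locus and by coding transcripts, and not by annotated sum. XRCC2 had 20.6, 14.8, 21.2 and 24.6 CPM by annotated sum and 46.1, 18.1, 39.2 and 56.2 CPM by whole locus, the latter 2.55-fold lower at 10 min (2.20 to 2.96). Its coding transcript XRCC2-201 had 20.6, 7.30, 21.2 and 24.6 CPM, and the processed transcript XRCC2-202 had 7.54 CPM at 10 min and 0.00 CPM in the other 3 libraries. XRCC3 had 28.1, 17.2, 18.8 and 41.0 CPM by annotated sum and 36.5, 23.7, 41.8 and 43.7 CPM by whole locus. XRCC3 shares 76.7% of its exon bases with KLC1 on the other strand. RAD51C had 8.56, 4.80, 10.7 and 8.78 CPM, a ratio of 0.561 (0.410 to 0.762), and RAD51D had 32.8, 27.6, 35.5 and 33.4 CPM, a ratio of 0.842 (0.733 to 0.965). These 4 paralogues all had their lowest annotated sum at 10 min.

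RAD51B was the exception and, over annotated transcripts, the scarcest member per length. Its annotated sum was 0.738, 4.39, 2.70 and 1.74 CPM, so it was 5.94-fold higher at 10 min (3.06 to 12.8). By whole locus it had 3.43, 4.39, 2.75 and 3.61 CPM and a 10 min ratio of 1.28 (0.864 to 1.91), whose interval included 1. Assembled models took 78.5% of that locus at 0 min and 0.00% at 10 min. Of the remaining recombination genes, RAD51AP1, which stimulates strand exchange, had 13.9, 7.09, 17.1 and 17.8 CPM, just short of the rule at a ratio of 0.512 (0.397 to 0.655). RAD52, which anneals single strands, had 7.77, 7.84, 6.75 and 5.80 CPM, a ratio of 1.01 (0.767 to 1.33).

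**Figure D3:**
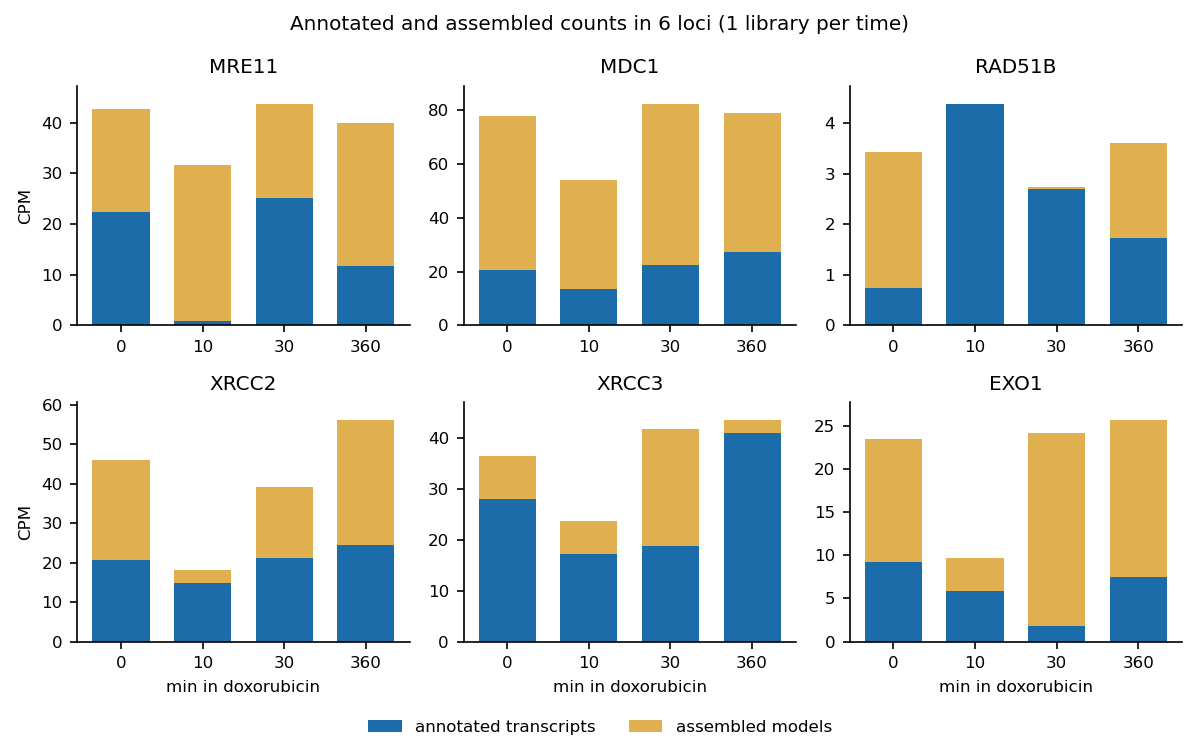
CPM in annotated transcripts (blue) and in assembled models without annotation (yellow) for the 6 loci where assembled models exceeded 50% in at least 1 library, at 0, 10, 30 and 360 min, with 1 library per bar. In MRE11 the blue bar nearly vanishes at 10 min (0.791 CPM) while the whole bar is 31.5 CPM, and in EXO1 it shrinks to 1.75 CPM at 30 min while the whole bar is 24.2 CPM.

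The 3 Fanconi genes all had their lowest level at 10 min. FANCD2, the protein ubiquitinated when the pathway fires (ENSG00000144554, chr3:10026414-10101930, plus strand), had 48.4, 20.5, 59.3 and 60.1 CPM and was 2.36-fold lower at 10 min (2.05 to 2.72). Its partner FANCI had 88.4, 48.8, 133 and 92.3 CPM by annotated sum, a ratio of 0.552 (0.502 to 0.607), and 107, 51.8, 139 and 122 CPM by whole locus, 2.07-fold lower (1.89 to 2.26). The coding transcripts of FANCI alone had 37.7, 28.2, 70.2 and 39.7 CPM, a 10 min ratio of 0.748 (0.655 to 0.853), short of the rule. BRIP1, the helicase that binds BRCA1, had 38.7, 20.8, 44.9 and 51.4 CPM, a ratio of 0.538 (0.465 to 0.621).

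The transcripts of the FANCD2 and FANCI pair were spread over models differently from library to library. FANCD2-201 had 26.9, 9.50, 5.83 and 9.43 CPM, and FANCD2-202 had 5.56, 6.24, 38.8 and 33.1 CPM. The leading FANCI model at 0, 30 and 360 min was FANCI-212, a retained intron, at 50.3, 56.5 and 43.1 CPM, and at 10 min it was the coding FANCI-202 at 23.99 CPM. Across the 38 members, 18 kept 1 leading transcript in all 4 libraries and 20 did not. How counts were divided among overlapping models is not given in the sources used here, so these splits carry an error that was not measured.

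By coding transcripts alone, a larger share of members was lower. At 10 min 12 of 38 were, where 8.99% of genes were, and 1 was higher (RAD51B), where 11.4% were. The 12 were MRE11, H2AX, RNF8, NHEJ1, BRCA1, BRCA2, BARD1, RAD51AP1, RAD54B, XRCC2, BLM and FANCD2. At 30 min 2 were lower (RNF8 and EXO1), where 5.57% of genes were, and 1 was higher (RAD51B), where 6.01% were. At 360 min 3 were lower (RNF8, NHEJ1 and RAD52), where 6.06% of genes were, and 1 was higher (BRCA1), where 4.9% were. The coding transcripts of RNF8 had 26.2 CPM at 0 min and 8.72, 9.08 and 10.2 CPM after, while its nonsense-mediated decay model RNF8-201 had 0.246, 9.03, 19.8 and 14.8 CPM. These values rest on how counts were divided among models of a gene.

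By annotated sum and whole locus the members were back near the untreated level at 30 min. Only EXO1 was lower and only RAD51B higher by annotated sum, 1 of 38 each way, where 4.78% and 4.93% of all genes were. By whole locus 0 of 33 were lower or higher, where 3.04% and 2.95% of genes were. FANCI had the highest whole-locus ratio there, 1.30, short of the rule. By whole locus the medians were -0.01 for the sensors, -0.01 for end joining, 0.16 for recombination and 0.21 for Fanconi genes.

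At 360 min 0 of 38 members were lower by annotated sum, where 4.78% of genes were, and 2 were higher, where 4.16% were. The 2 were BRCA1 and RAD51B, the latter at 2.36-fold (1.10 to 5.42). By whole locus 0 of 33 passed in either direction, where 2.67% of genes were lower and 1.93% higher. All 12 recombination genes with a tied locus had a 360 min ratio above 1, with a median log2 of 0.27, and all 3 Fanconi genes did, with a median of 0.25, beside 49.1% of all tied genes. By annotated sum 13 of the 16 recombination genes were above 1, and EXO1, RAD52 and RAD54B were below. Of 23 other recombination genes with a tied locus, 14 were above 1 and 9 below, with a median log2 of 0.08. Of 13 other Fanconi genes 10 were above and 3 below, with a median of 0.08. The whole-locus ratio was above 1 for 16 of 17 tied S phase genes and 19 of 19 tied G2 and mitosis genes. The sensors had a median of 0.02 and end joining 0.04. Of the 38 annotated sums, 20 (52.6%) were highest at 360 min, beside 23.1% of all genes.

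Between treated libraries only annotated sums were called. By these, 13 of 38 members were higher at 30 min than at 10 min, where 7.05% of genes were. Only 1 was lower, EXO1, where 11.3% were, while its whole locus went the other way, from 9.64 to 24.2 CPM. At 360 min 14 were higher than at 10 min, where 7.97% of genes were, and 1 was lower, RAD51B, where 13.2% were. The whole locus of RAD51B had 4.39 CPM at 10 min and 3.61 CPM at 360 min. MRE11 was among the higher members both times, and its whole locus had 31.5, 43.7 and 40.0 CPM at 10, 30 and 360 min. These 2 comparisons share the 10 min library with each other and with the comparison above. All 3 Fanconi genes were higher at 30 than at 10 min, FANCD2 by 2.89-fold (2.52 to 3.32), FANCI by 2.73-fold (2.50 to 2.99) and BRIP1 by 2.15-fold (1.87 to 2.49), and 0 of 6 end joining genes were. BRCA2 was 3.84-fold higher at 30 than at 10 min (3.11 to 4.78) and BLM 3.30-fold (2.60 to 4.24). At 360 min against 30 min 3 members were higher (BRCA1, XRCC3 and EXO1), where 4.28% of genes were, and 1 was lower (MRE11), where 5.03% were. Those 4 loci all held assembled models, and in EXO1, XRCC3 and BRCA1 these took more than 50% at 30 min. By whole locus, EXO1 had 24.2 and 25.7 CPM at 30 and 360 min, XRCC3 41.8 and 43.7 CPM, and MRE11 43.7 and 40.0 CPM. The locus that holds BRCA1, not tied to it, had 40.2 and 53.0 CPM. By whole locus these 4 changes were thus all short of 2-fold.

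Other genes of the same pathways were counted from lists of their own, and are read against the 7.24% of all genes that were lower at 10 min and the 11.5% that were higher. Of 27 other sensors, mediators and checkpoint genes, 4 were lower at 10 min and 0 higher, with a median log2 of -0.54. Those with the lowest ratios were CLSPN, which carries the ATR signal to CHEK1 (52.3, 13.2, 53.2 and 60.9 CPM), TIPIN of the fork protection complex (13.9, 4.23, 13.5 and 17.8 CPM) and CDC25A, the phosphatase that the checkpoint destroys (24.9, 8.53, 13.9 and 23.7 CPM). These 3 genes tie the checkpoint to replication forks and to cyclin-dependent kinases. Of 14 other end joining genes, 1 was lower (7.14%) and 2 were higher, shares near those of all genes, with a median of -0.34. POLQ, the polymerase of microhomology-mediated joining, was lower (44.2, 18.2, 43.0 and 49.2 CPM). POLM, a gap-filling polymerase, was higher (13.9, 36.6, 12.1 and 10.2 CPM), as was APLF, a Ku-binding scaffold (2.53, 6.10, 2.62 and 0.326 CPM).

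Of 23 other recombination genes that were measured, of 24 listed, 5 were lower at 10 min and 0 higher, with a median log2 of -0.62. TONSL, which recruits the recombinase at stalled forks, had 54.8, 20.2, 63.2 and 65.5 CPM, and DNA2, a resection nuclease, had 26.7, 11.1, 26.2 and 32.4 CPM. MCM8, a helicase of recombination, had 55.1, 23.6, 53.8 and 63.1 CPM. DMC1, the meiotic recombinase, had 0 counts in all 4 libraries. Of 14 other Fanconi genes 3 were lower and 0 higher, with a median of -0.55. They were FANCM, a fork translocase (12.1, 4.84, 10.4 and 14.4 CPM), FANCA of the core complex (62.2, 30.1, 56.4 and 65.7 CPM) and FAAP24, the partner of FANCM (7.95, 3.87, 7.78 and 8.41 CPM). Genes outside the 38 were thus also lower at 10 min. By annotated sum other end joining genes had the median nearest to 0 of these lists. By whole locus the medians were -0.45 for other sensors, -0.46 for other end joining, -0.62 for other recombination and -0.73 for other Fanconi genes. There 2 of 12 other end joining genes were lower (16.7%), beside 5.21% of all tied genes, and 1 was higher, beside 9.76%.

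**Figure D4:**
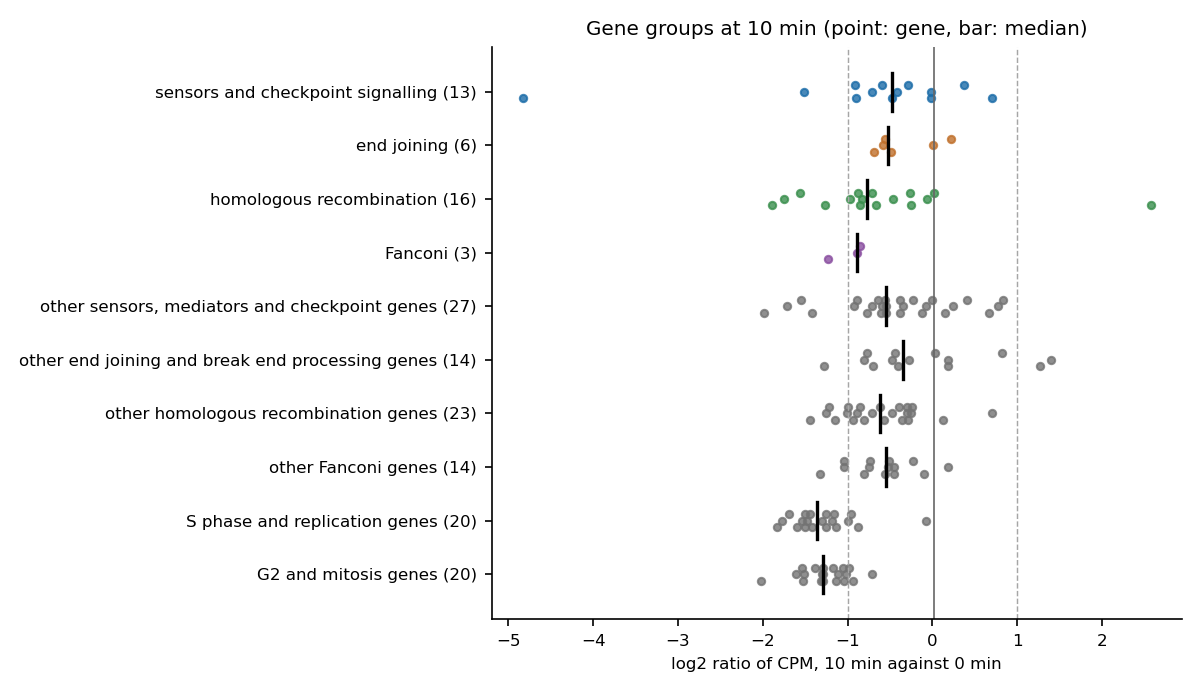
Log2 ratio of CPM at 10 min against 0 min for each gene (point) by group, with the median as a black bar, the median of all genes as a thin line and dashed lines at 2-fold. The numbers in brackets count measured genes. S phase and G2 genes (medians -1.36 and -1.29) lie further left than any repair group (medians from -0.34 to -0.89).

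Genes of the cell cycle were lower in the same library. At 10 min 16 of 20 S phase and replication genes were lower and 0 higher, with a median log2 of -1.36, and 17 of 20 G2 and mitosis genes were lower and 0 higher, with a median of -1.29. RRM2, a subunit of ribonucleotide reductase, had 164, 46.1, 195 and 131 CPM, and GINS2 of the replicative helicase had 46.1, 13.5, 48.4 and 61.8 CPM. MCM4 of the same helicase had 198, 61.1, 201 and 229 CPM. Among mitotic genes CDK1, the kinase that starts mitosis, had 73.0, 17.9, 79.3 and 84.2 CPM, CENPE, a kinetochore motor, had 21.3, 6.94, 27.1 and 23.0 CPM, and CDC20, which activates the anaphase ligase, had 200.3, 68.8, 210 and 223 CPM. The summed level of the 38 members was 3086, 2046, 3075 and 3213 CPM. The marker lists of other cell types had their highest summed level at 10 min, the library in which 37.2% of all genes were highest. That library also had the most genes at 1 CPM, 15100, beside 14552 at 0 min. Fibroblast markers had 13323, 17518, 11073 and 11123 CPM, endothelium markers 18.7, 41.1, 19.0 and 16.9 CPM (2 of 6 reached 1 CPM, KDR at 0 in all 4 libraries), and immune markers 38.3, 66.5, 38.3 and 34.7 CPM (3 of 6, CD14 at 0). Epithelium markers had 5.31, 8.004, 6.84 and 6.62 CPM (1 of 5, KRT14 at 0), and the cardiomyocyte list 114, 140, 211 and 148 CPM, highest at 30 min. The part of the cell cycle genes and of other cell types in the members' result was not tested.

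Levels between genes were compared per transcript length, as TPM (counts divided by transcript length, then scaled to the same total in each library) over annotated transcripts. XRCC6 had the highest level, 747, 483, 732 and 733 TPM, followed by H2AX with 281, 101, 268 and 312 TPM. XRCC5 had 235, 159, 228 and 242 TPM and PRKDC 146, 97.6, 122 and 137 TPM. The kinase complex of end joining thus held 3 of the 4 highest means. At the low end were RAD51B with a mean of 4.31 TPM, BRCA2 with 5.96 TPM and EXO1 with 6.55 TPM. TPM leaves out assembled models, which held 39.6 to 92.7% of the EXO1 locus and 0 to 78.5% of the RAD51B locus. H2AX ranked above XRCC5 at 0, 30 and 360 min and below it at 10 min.

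**Figure D5:**
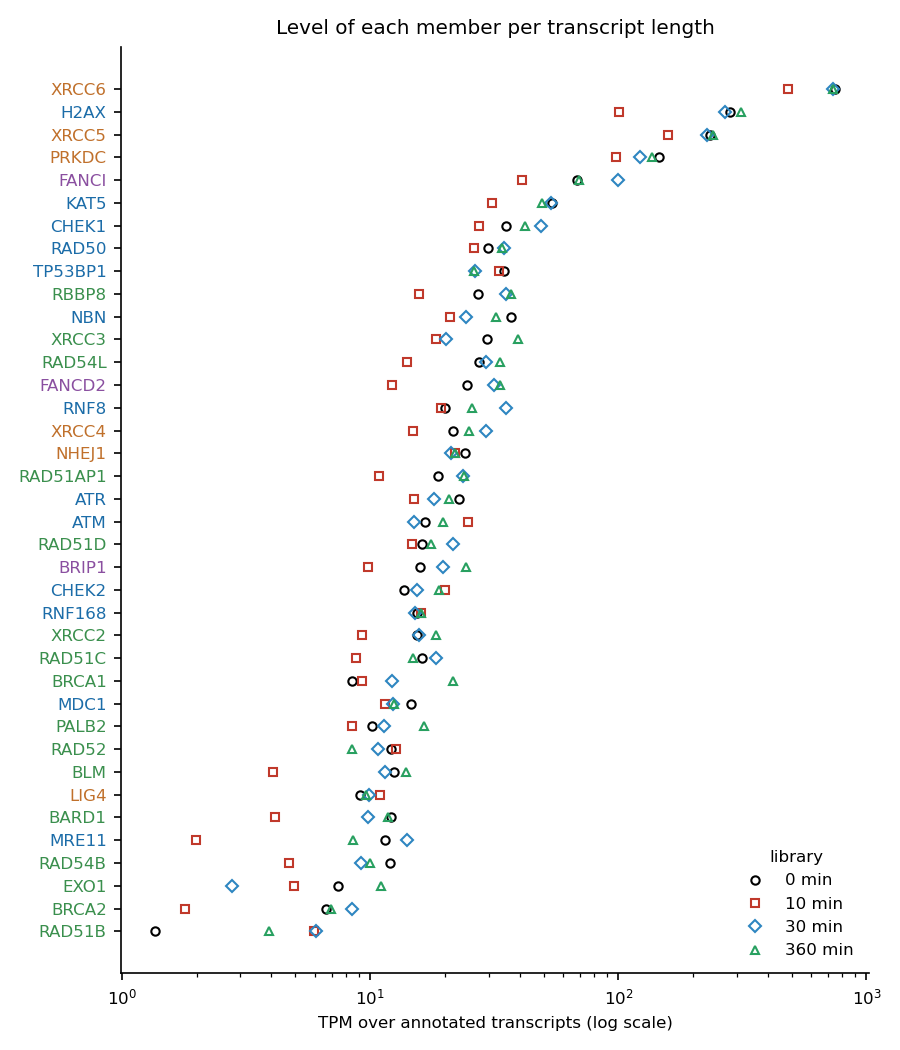
TPM over annotated transcripts (log axis) for the 38 members, ordered by mean, with 1 symbol per library and the name coloured by role. Red squares (10 min) lie left of the other symbols in H2AX, BLM, BRCA2 and BARD1, and the means run from 4.31 TPM for RAD51B to 674 TPM for XRCC6.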

How the data were processed

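Poly(A) RNA of AC16 cells was sequenced in 4 libraries, 1 each at 0, 10, 30 and 360 min of 10 nM doxorubicin. The submitters' processing notes name HISAT2, DESeq2 and the build GRCh38. Counting tool, annotation release and strand setting: not given in the sources used here. Estimated counts for transcripts and for loci, annotated and assembled, are what the authors deposited; all were whole numbers, so rounding changed none.

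Annotated transcripts were matched to GENCODE 29 (88.2 to 89.2% of counts matched) and summed per gene. CPM used the column totals and TPM the transcript lengths. An assembly locus was tied to a gene where its counts, less those of its assembled models, equalled the gene's annotated sum, or that of a run of up to 6 neighbouring genes of which the gene held at least 95%, in all 4 libraries. Counts were divided by 4, taken as the worth of a read pair, for the counting intervals. Of 12913 low values of genes with 1 transcript, 31.4% were multiples of 4, where even spacing gives 25%, and 58.2% were multiples of 2. Most were thus not multiples of 4, and the worth of 4 is an assumption. Intervals are exact binomial at 95% and cover counting error only. The ratio rule was run on simulated counts that held counting error only. That run cannot check the worth of 4, spread between cultures or the division of counts among models.

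The members, the roles and the other lists were chosen with earlier results of these data known. Values in all libraries were planned for members past the rule against 0 min and for the 2 of each role with the highest mean CPM, and for up to 3 genes of each other list with the largest ratio at 10 min. The values of the remaining members, transcripts and markers were chosen after they were seen. Alternatives were TMM (edgeR 4.0.16, R 4.3.3) and median-of-ratios scaling, filters, coding transcripts, whole loci, undivided counts, another baseline and a 1.5-fold rule. Python 3.11.15 with numpy 2.4.6, pandas 2.3.3, SciPy 1.17.1 and matplotlib 3.10.9 was used.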

Additional observations from a re-analysis of the deposited data

Results flagged for a closer look

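Transcript models without annotation carried counts in members' loci, outside the annotated sums. They exceeded 50% of a locus in at least 1 library for 6 of the 33 tied members, and 22 tied members had none. The highest shares were reached by MRE11 at 10 min with 30.8 CPM in assembled models, MDC1 at 10 min with 40.6 CPM, RAD51B at 0 min with 2.69 CPM, XRCC2 at 360 min with 31.6 CPM, XRCC3 at 30 min with 23.0 CPM and EXO1 at 30 min with 22.4 CPM. They are named here because those counts lie outside the annotated sums that the comparisons use; the untreated library holds such counts too.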

How the results depend on the processing

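TMM and median-of-ratios scaling left every call count within 1.5 times, and the median log2 ratio of the members at 10 min stayed between -0.71 and -0.63 over all settings run. With genes of at least 5 CPM, members higher numbered 0 at 10 min, 0 at 30 min and 1 at 360 min. By whole locus, members higher numbered 0 at 10, 30 and 360 min, and members lower numbered 0 at 30 min. With coding transcripts only, members lower numbered 12 at 10 min, 2 at 30 min and 3 at 360 min, and members higher numbered 1 at 360 min. Against the median of the other 3 libraries, members lower at 10 min numbered 11. With a 1.5-fold rule, 21 were lower and 2 higher at 10 min, 2 higher at 30 min and 1 lower at 360 min. The sign reversed for RAD51B at 30 min (log2 -0.32) and EXO1 at 30 min (0.042) by whole locus, and for RAD51B at 360 min (-0.63) against the other 3 libraries. Leaving assembled models out or in is what separates the first pair. RAD51B at 360 min (1.74 CPM) lay above its 0.738 CPM at 0 min and below its 2.70 CPM at 30 min, the median of the other 3 libraries. For the other shifts the cause was not tested.

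No paired analysis was possible because each time has 1 library. For the same reason no library was left out within a group. Counting error limits the scarce members, and the median interval spans 0.24 log2 units to either side at 10 min; spread between cultures was not measured.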
